A study of Astragalus chrysochlorus with 2 samples.

Results

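Selenate-treated callus of Astragalus chrysochlorus, a legume that accumulates selenium, held more fragments of 10 unigenes named as ABC transporters of the B family than untreated callus did. A unigene is a transcript sequence assembled from the reads without a genome. The 10 were taken from the 82566 unigenes of the deposited table by identifier, and these identifiers had been selected on the measured difference itself. Each carries a B family name in the study's list of unigenes that passed a log2 ratio of 2 in size and a false discovery rate (FDR) of 0.001 in these same libraries. All 10 listed there are higher after selenate, and a B family unigene that did not pass has no name in that list. The direction and size of the differences are therefore given as a description. The FDR compares the fragment counts of the 2 libraries, and no test of the conditions was made.

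The Se-treated group was 1 library from callus moved at 21 days of age to MS medium with 5 mg/L sodium selenate and kept there for 3 weeks. The Control group was 1 library from callus on the medium without selenate. Both media held 0.5 mg/L of the synthetic auxin 2,4-D, and both libraries came from callus cultures kept over the long term. Callus is an undifferentiated tissue with no fixed cell types to check by markers. In units of 1e06, the mapped fragments totalled 16.70 in Se-treated and 16.73 in Control callus. The median unigene had 21 and 22 fragments, and 81161 unigenes in Se-treated and 81479 in Control callus had at least 1. With 1 library per condition there is no measure of the spread between cultures. Treatments were done in triplicate, and whether a library pools these cultures is not stated in the study's methods. A change in the share of the cells that express a gene and a change in RNA per cell cannot be told apart in such bulk RNA.

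ABC transporters are membrane proteins that use ATP to move small molecules across a membrane. The B family of plants is related to the multidrug resistance P-glycoproteins of animals. It holds long members, built from a pair of membrane domains and a pair of ATP-binding domains in 1 chain, and short members, which carry a single copy of each and work as dimers. In Arabidopsis, ABCB1 exports auxin from cells, and other long members also carry auxin, while several short members lie in mitochondria or plastids.

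Levels are given as FPKM, the fragments of a unigene divided by its length in kilobases and scaled to 1e06 fragments in its library. Differences are log2 ratios of FPKM in Se-treated over Control callus. Each value has an exact 95% interval in parentheses, from Poisson limits for a level and binomial limits for a ratio, and these intervals cover counting error only. Identifiers end in _All in the deposited table, as in CL1768.Contig2_All, and that ending is left out below after the members are first listed. A CL number marks a cluster of similar sequences whose contigs can share reads, and a Unigene number marks a sequence outside any cluster.

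By name, 3 members were matched to soybean proteins of the long B1 and B11 types, namely CL1768.Contig1_All (B member 11-like), CL7283.Contig1_All (B member 1-like isoform 2) and Unigene41227_All (B member 1-like). CL1820.Contig1_All was matched to soybean B member 28-like, whose Arabidopsis namesake is a short member. The other 6 members, CL1768.Contig2_All, CL1768.Contig3_All, CL1768.Contig4_All, Unigene7566_All, Unigene38530_All and Unigene40079_All, were matched to Medicago truncatula proteins named as B family members with no number, so no role is given for them. The 10 members matched 7 protein records in all. CL1768.Contig2 and Unigene38530 shared 1 record, and CL1768.Contig3, Unigene7566 and Unigene40079 shared another, so members are not 10 independent genes. Of the 10, 8 were shorter than 1000 nt (212 to 631 nt). The median length was 488.5 nt among the members, 513 nt among all 1311 unigenes called higher at a log2 ratio of 2, and 785 nt in the whole table.

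All 10 members were detected in both libraries and had at least 10 fragments. None was therefore lost to a filter on low counts, which the selection by an FDR on these counts largely fixes. All 10 passed a log2 ratio of 2 and the FDR, beside 1.59% of all unigenes in that direction, and this count is fixed by the way the members were selected. The same 10 passed at a log2 ratio of 1, which 5.5% of all unigenes passed. The median log2 ratio was 2.61 over the members, 2.50 over all unigenes called higher at a log2 ratio of 2, and -0.09 over all 82566 unigenes. The members just inside the threshold were CL1768.Contig2 at 2.01, CL1820.Contig1 at 2.02 and CL1768.Contig3 at 2.07. The nearest unigene outside it, Unigene13164, had a log2 ratio of 1.9995, from 998 fragments in Se-treated and 250 in Control callus. For the counts behind the call, the interval lay wholly above a 2-fold difference in all 10 members. In 2 of them, CL1768.Contig4 and Unigene40079, it lay wholly above a 4-fold difference. The members were selected on these same counts, so the intervals describe the members and add no support. The share of all unigenes with such intervals is not given here.

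**Figure D1:**
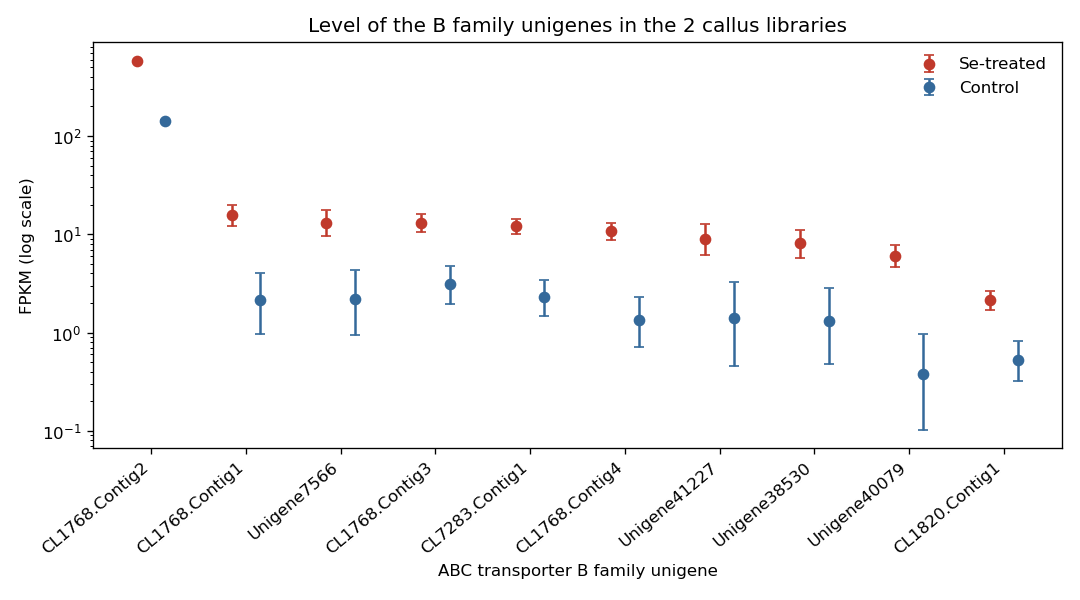
FPKM (log axis) of each B family unigene in the Se-treated (red, left) and Control (blue, right) library, 1 library each, with exact 95% Poisson intervals of the count. CL1768.Contig2 sits at 576 and 143 FPKM, and the other 9 lie between 2.15 and 15.7 FPKM in Se-treated and between 0.379 and 3.12 FPKM in Control callus.

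CL1768.Contig2 stood far above the other members in level. This contig of 4052 nt, the longest member, had 38981 fragments in Se-treated and 9713 in Control callus. Its level was 576 FPKM (570.3 to 581.8) in Se-treated and 143 FPKM (140.4 to 146.2) in Control callus, a 4.02-fold difference (3.93 to 4.11). By FPKM it ranked 112 in the Se-treated library and 985 in the Control library among the 82566 unigenes. It alone made up 98.4% of the fragments of all members in Se-treated and 98.9% in Control callus, and 98.2% of the fragments that Se-treated callus had in excess. The level was 36.7 times that of the next member in Se-treated and 45.9 times in Control callus. Summed over the members, B family fragments were 0.237% of the Se-treated and 0.0587% of the Control library, a log2 ratio of 2.01 (1.98 to 2.05) that is in effect the ratio of this contig.

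The other contigs of cluster CL1768 were short and sparse, and all 3 are members. CL1768.Contig1, of 252 nt, had 66 fragments in Se-treated and 9 in Control callus, or 15.7 FPKM (12.1 to 19.95) and 2.13 FPKM (0.976 to 4.05). Its log2 ratio was 2.88 (1.87 to 4.07). CL1768.Contig4, of 575 nt, had 103 fragments in Se-treated and 13 in Control callus, or 10.7 FPKM (8.75 to 13.0) and 1.35 FPKM (0.720 to 2.31). Its log2 ratio of 2.99 (2.15 to 3.95) had an interval wholly above that of CL1768.Contig2 (1.98 to 2.04). CL1768.Contig3, of 402 nt, had 88 fragments in Se-treated and 21 in Control callus, or 13.1 FPKM (10.5 to 16.1) and 3.12 FPKM (1.93 to 4.77). Its log2 ratio of 2.07 (1.37 to 2.83) was close to that of the long contig. Together these 3 had 257 fragments in Se-treated and 43 in Control callus, a log2 ratio of 2.58 (2.11 to 3.08). They held under 1% of the cluster, since CL1768.Contig2 took 99.3% of its fragments (99.3 to 99.4) in Se-treated and 99.6% (99.4 to 99.7) in Control callus. The whole cluster of 4 contigs had 39238 fragments in Se-treated and 9756 in Control callus, and its log2 ratio was 2.01 (1.98 to 2.04).

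Among the members matched to B member 1-like proteins, the long contig of the same cluster differed from the member. CL7283.Contig1, of 622 nt, had 126 fragments in Se-treated and 24 in Control callus, or 12.1 FPKM (10.1 to 14.4) and 2.31 FPKM (1.48 to 3.43). Its log2 ratio was 2.39 (1.76 to 3.09). CL7283.Contig2, of 4331 nt, is not a member and has no name in the list. It had 1026 fragments in Se-treated and 744 in Control callus, or 14.2 FPKM (13.3 to 15.1) and 10.3 FPKM (9.54 to 11.03). The log2 ratio of this long contig was 0.47 (0.33 to 0.60), which passed the FDR but not a log2 ratio of 1, and its interval lay wholly below that of CL7283.Contig1. The short contig took 10.9% of the fragments of the cluster (9.19 to 12.9) in Se-treated and 3.13% (2.01 to 4.61) in Control callus. Summed over both contigs, CL7283 had 1152 fragments in Se-treated and 768 in Control callus, a log2 ratio of 0.59 (0.45 to 0.72). The call of CL7283.Contig1 at either threshold was thus lost when its cluster was summed.

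Unigene41227, the other B member 1-like unigene, was 212 nt long and had 32 fragments in Se-treated and 5 in Control callus. These are 9.04 FPKM (6.18 to 12.8) and 1.41 FPKM (0.458 to 3.29), a log2 ratio of 2.68 (1.31 to 4.40). It had the fewest fragments of all members, 37 over both libraries.

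CL1820.Contig1, matched to B member 28-like, had the lowest level of the members in Se-treated callus. This contig of 2251 nt had 81 fragments in Se-treated and 20 in Control callus, or 2.15 FPKM (1.71 to 2.68) and 0.531 FPKM (0.324 to 0.820), a log2 ratio of 2.02 (1.30 to 2.81). The other contig of its cluster, CL1820.Contig2 (1618 nt), had 9 fragments in Se-treated and 6 in Control callus, a log2 ratio of 0.59 (-1.07 to 2.36) that did not pass the FDR. CL1820.Contig1 took 90% of the cluster (81.9 to 95.3) in Se-treated and 76.9% (56.4 to 91.0) in Control callus, and these intervals overlap. The cluster as a whole had a log2 ratio of 1.79 (1.15 to 2.48), from 90 and 26 fragments, and so passed a log2 ratio of 1 but not 2.

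The 3 members with a Medicago match outside the clusters were also higher in Se-treated callus. The selection fixed that each passed a log2 ratio of 2 in size. Unigene7566, of 218 nt, had 48 fragments in Se-treated and 8 in Control callus, or 13.2 FPKM (9.72 to 17.5) and 2.19 FPKM (0.947 to 4.32), a log2 ratio of 2.59 (1.49 to 3.88). Unigene38530, of 273 nt, had 37 fragments in Se-treated and 6 in Control callus, or 8.11 FPKM (5.71 to 11.2) and 1.31 FPKM (0.482 to 2.86). Its log2 ratio of 2.63 (1.37 to 4.16) had an interval that holds the value of CL1768.Contig2, with which it shares its protein match. Unigene40079, of 631 nt, had the largest ratio of the members, from 64 fragments in Se-treated and 4 in Control callus. Its levels were 6.07 FPKM (4.68 to 7.75) in Se-treated and 0.379 FPKM (0.103 to 0.970) in Control callus, a log2 ratio of 4.00 (2.58 to 5.92). That is 16.0-fold (5.96 to 60.6) and rests on the 4 Control fragments, and with 1 FPKM added to both libraries the log2 ratio was 2.36. Summed with CL1768.Contig3 and Unigene7566, which match the same protein, it gave 200 fragments in Se-treated and 33 in Control callus, a log2 ratio of 2.60 (2.07 to 3.18).

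**Figure D2:**
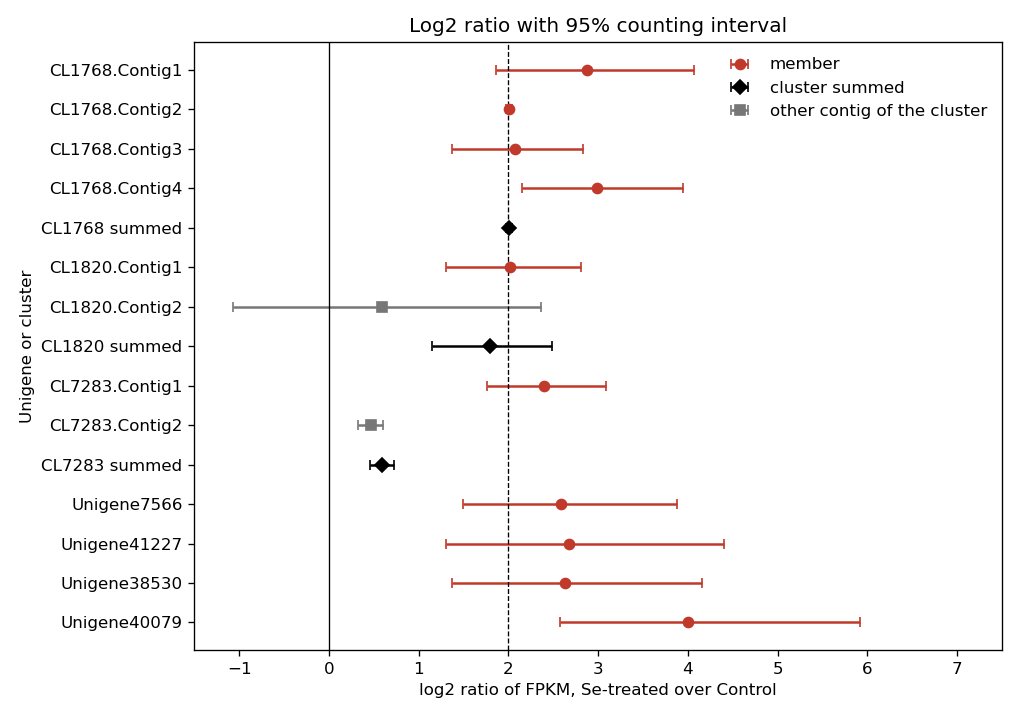
Log2 ratio of FPKM in Se-treated over Control callus (x axis) for each member (red circles), the other contigs of their clusters (grey squares) and each cluster summed (black diamonds), with exact 95% binomial intervals that cover counting error. The dashed line marks the threshold of 2 used in the selection, and CL7283.Contig2 and its summed cluster lie at 0.47 and 0.59, apart from the member of that cluster at 2.39.

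The ratios of most members could not be told apart at this depth. Of the 45 pairs of members, the intervals of the log2 ratio overlapped in 43. The exceptions were CL1768.Contig2 against CL1768.Contig4 and against Unigene40079, with the long contig lower in both. The members were selected on these same ratios, and contigs of a cluster can share reads, so the exceptions are given as a description. In Se-treated callus the order of the levels was CL1768.Contig2, CL1768.Contig1, Unigene7566, CL1768.Contig3, CL7283.Contig1, CL1768.Contig4, Unigene41227, Unigene38530, Unigene40079 and CL1820.Contig1. Only the steps after the first and before the last place were wider than the counting intervals of the neighbours. In Control callus CL1768.Contig2 was again first and apart from the second, CL1768.Contig3, while all later neighbours overlapped, with Unigene40079 last at 0.379 FPKM. Of the 10 members, 5 had fewer than 100 fragments over both libraries, and CL1768.Contig2 was the sole one with more than 150.

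**Figure D3:**
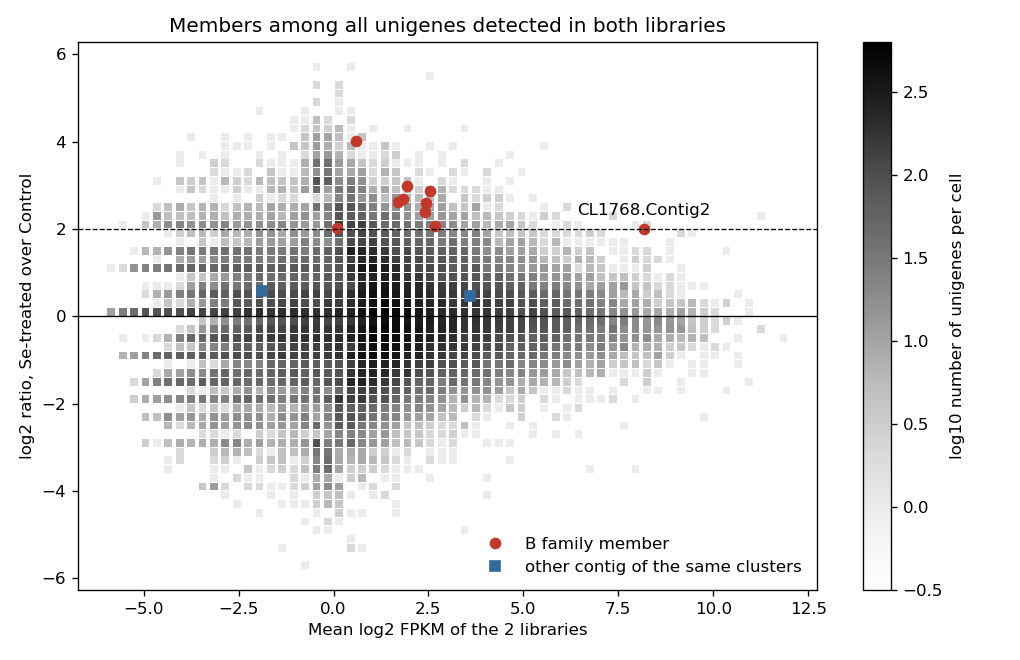
Mean log2 FPKM of both libraries (x axis) against the log2 ratio, Se-treated over Control (y axis), with unigenes detected in both libraries as grey cells (7 of 80074 lie outside the axes) shaded by their number on a log scale, members as red circles and the other contigs of their clusters as blue squares. CL1768.Contig2 lies alone at the right, at a log2 ratio of 2.01, and the other members sit at lower levels with ratios of 2.02 to 4.00.

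The unigenes whose levels were most like those of CL1768.Contig2 were found by their distance on the log2 FPKM scale over the 2 libraries. With 2 values per unigene this is a likeness of level and ratio alone. The nearest was Unigene6935, named as a glyoxysomal aspartate aminotransferase, an enzyme of amino acid metabolism, with 661 FPKM in Se-treated and 158 FPKM in Control callus, at a distance of 0.24. Unigene23149, named as a universal stress protein A-like protein, had 587 FPKM in Se-treated and 106 FPKM in Control callus, at 0.44. The other 3 of the 5 nearest (Unigene11622, Unigene6996 and Unigene26068) carry no name in the list, and their log2 ratios were 2.11, 1.47 and 1.46.

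The direction of unigenes outside the clusters moved with the number in their names, and 3 of the 4 such members have high numbers. Among the 984 detected unigenes within 500 numbers of Unigene41227, 81.4% were higher in Se-treated callus and 14.1% passed a log2 ratio of 2 and the FDR. For Unigene40079 these shares were 86.9% and 14.9%, and for Unigene38530 they were 71.2% and 3.97%. Around Unigene7566 they were 48.5% and 1.20%, near those over all 45348 unigenes outside clusters, 47.8% and 1.92%. The part of this pattern in the ratios of Unigene41227, Unigene38530 and Unigene40079 was not tested. Without the 4 unigenes outside the clusters, the median log2 ratio of the remaining 6 members was 2.23.

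**Figure D4:**
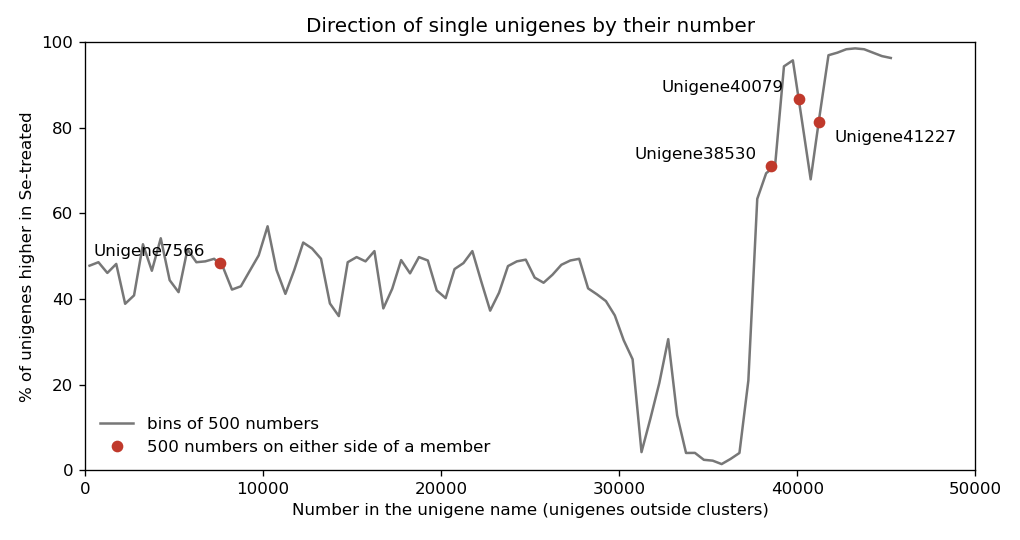
Share of detected unigenes outside clusters that were higher in Se-treated callus (y axis, %) in bins of 500 numbers (grey line) and within 500 numbers on either side of each single-unigene member (red circles), against the number in the unigene name (x axis). The surroundings of Unigene7566 lie at 48.5%, and those of Unigene38530, Unigene41227 and Unigene40079 at 71.2%, 81.4% and 86.9%.

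The study's list names 12 other unigenes as ABC transporters, which were selected in the same way. Of these, 8 were higher in Se-treated callus and 4 lower, beside 1.59% and 1.1% of all unigenes at a log2 ratio of 2 in each direction, and their median log2 ratio was 2.16. The C family, long vacuolar and other pumps that include transporters of glutathione conjugates, had 2 higher members, such as C member 5-like (CL7881.Contig1, 1253 fragments in Se-treated and 297 in Control callus, log2 ratio 2.08). The G family, which includes exporters of cuticle lipids, had 3 higher and 2 lower members, and both A family members were lower, such as A member 7-like (CL3003.Contig2, -2.23). The 3 ABC unigenes with no family in their names were all higher. In the Se-treated library the 12 together held 2087 fragments, against 39626 for the 10 B family members, and in the Control library 578 against 9823. Most of the B family sum was CL1768.Contig2. The other B family members held 645 fragments in Se-treated and 110 in Control callus, fewer than these 12.

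None of these differences has a replicate check. In a further setting, cultures were assumed to vary with a coefficient of variation of 0.2 on top of the counting error. CL1768.Contig2, CL1768.Contig4, CL7283.Contig1 and Unigene40079 then still passed the FDR and the other 6 members did not. Of all unigenes, 0.449% passed there at a log2 ratio of 2. With 0.4 none of the 10 passed, and neither did any other unigene at a log2 ratio of 2 (0%). The members were selected on these same counts, so neither setting sets them apart from other unigenes.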

How the data were processed

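RNA of 1 Se-treated and 1 Control callus library was sequenced. The authors assembled the reads with Trinity (release 20130225), TGICL (2.1) and Phrap (23.0), mapped them with SOAP (2.21), and deposited unnormalized fragment counts and the length of each unigene. The deposited FPKM (2 columns) and the 3 columns of the authors' own comparison (direction, P-value, FDR) were not used. Names came from the study's list of called unigenes.

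FPKM and log2 ratios were computed from the counts, with an FPKM of 0 set to 0.001. Calls needed a log2 ratio of 1 or 2 in size and an FDR no higher than 0.001. The P-values behind it came from the Audic-Claverie test (two-sided) on both counts, which compares the 2 libraries and not the conditions, with Benjamini-Hochberg adjustment over all 82566 unigenes. This code was tested on simulated counts with Poisson error alone, a setting that holds no spread between cultures. The alternatives were pseudocounts, scaling, summing of clusters or protein matches, other tests, an assumed spread and filters. Members and lists were chosen with earlier results of these data known. The text names all members, the contigs of their clusters, at most 1 example per other ABC family in the results, and the 5 unigenes nearest in level to CL1768.Contig2. Unigene13164 and the G family unigenes of the closing section were named after their values were seen. Software was scipy 1.17.1, pandas 2.3.3 and numpy 2.4.6 in Python 3.11.15, and figures were drawn with matplotlib 3.10.9.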

Additional observations from a re-analysis of the deposited data

How the results depend on the processing

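Recentring on the median or scaling by the upper quartile moved the log2 ratio of cluster CL1768 to 2.04 in both cases. The zero point of every log2 ratio moved to -0.03. Both kept all 10 calls, beside 1.70% of all unigenes called higher at a log2 ratio of 2. As both raised every log2 ratio slightly, no member could fall below 2 in them. An assumed coefficient of variation of 0.2 left 4 members called at a log2 ratio of 2 and 4 at 1, and 0.449% of all unigenes at 2. With 0.4 there were 0, 0 and 0%. Without the unigenes outside clusters 6 members remained, all called, as the selection fixes, beside 1.18% of all contigs in clusters. Summing clusters left 8 members called at 2 and 9 at 1, but the 4 of CL1768 then share 1 value. Of the 7 separate features 5 were called at 2 and 6 at 1. Merging by protein match gave 7 of 7, which the selection fixes because every merged member was itself called. No share over all features is given for summing or merging. The exact binomial test, the Benjamini-Yekutieli adjustment and the filter on fewer than 10 fragments kept all 10, which the selection on these same counts largely fixes. The shares of unigenes called higher at a log2 ratio of 2 were 1.57%, 1.24% and 1.80% in that order. The median log2 ratio of the members lay between 2.01 (clusters summed) and 2.64 (upper quartile). The lower value counts the sum of CL1768 once for each of its 4 members. With 1 FPKM added, CL1820.Contig1 had a log2 ratio of 1.04 and CL1768.Contig3 of 1.77. CL7283.Contig1 at 1.99, Unigene38530 at 1.98 and CL1768.Contig2 at 1.9997 also fell below 2 there, while the other members stayed above 2. No paired analysis was possible because each group has 1 library, and for the same reason no library could be left out. Depth limits the 5 members with fewer than 100 fragments most.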

Other observations

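Clusters in which every contig was called higher at a log2 ratio of 2 were few. CL1768 was 1 of 2 such clusters among the 930 with 4 contigs, and 40 of the 930 had at least 1 called contig. The contigs of CL1768 are members because each was called, so its place among the 2 follows from the selection. Nor are its contigs 4 separate calls, since contigs of a cluster can share reads and CL1768.Contig2 held 99.3% of the cluster in Se-treated callus. Among the 4992 clusters of 2 contigs, 142 had at least 1 called contig and in 128 of these, as in CL1820 and CL7283, it was 1 contig alone.

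Among the 5 named G family unigenes, all outside the clusters, the share of neighbours in number that were higher in Se-treated callus differed widely. Around the lower G family unigenes Unigene31320 and Unigene33845, 7.81% and 4.10% of the unigenes within 500 numbers were higher in Se-treated callus, against 93.3% around G member 26-like (Unigene39739) and 97.6% around G member 28-like (Unigene44243), which were higher. Around the third higher one, Unigene23090, which had the most fragments of the 5 (418 in Se-treated and 88 in Control callus), the share was 40.7%. Unigene44243 had 16 fragments in Se-treated and 0 in Control callus.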
